A study of Mus musculus with 58 samples.

Results

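Lens crystallins and lens fiber genes are the 9 genes Cryaa, Cryab, Cryba1, Crybb1, Crybb2, Crygs, Mip, Bfsp1 and Bfsp2 among the 52459 gene rows of a retinal read count table. The genes were picked by symbol with their uneven levels over these libraries already known, so levels across libraries are given as a description and carry no test. Each of the 58 libraries was made from 1 retina of a 4-month-old male mouse on the C57BL/6 background. The 28 diabetic libraries came from mice heterozygous for Ins2Akita, a mutation of an insulin gene that makes the animals hyperglycemic, and the 30 control libraries came from male littermates without it. All mice lived under 12 h of light and 12 h of dark, and the paper names no other treatment of the animals. Collection was at zeitgeber time (ZT, hours after lights on) 1, 5, 9, 13, 17 and 21, which gave 12 groups of 4 to 6 libraries. The retinas were dissected out of the eye under a microscope, and no lens sample was among the libraries. For the night points, ZT13, 17 and 21, the paper states that the work was done under dim red light. Handling thus differed between the day and the night groups. P-values judge differences against the variation between these single retinas.

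Crystallins are the soluble proteins that fill the fiber cells of the lens and give it its refractive power. Cryaa and Cryab encode the alpha crystallins, which are small heat shock proteins that keep other proteins from aggregating, and Cryab is also made in retina, muscle and glia. Cryba1, Crybb1, Crybb2 and Crygs encode members of the beta and gamma superfamily, which are compact structural proteins. Mip encodes the water channel aquaporin 0 of the fiber membrane, and Bfsp1 and Bfsp2 encode filensin and phakinin, the intermediate filament proteins of the beaded filament found in lens fibers. Large MAF and SOX factors with PAX6 are known to switch on crystallin genes in the developing lens, often through short elements just before the start of transcription.

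To show what such a start looks like, the 150 bases upstream of the RefSeq start are printed for 3 members with a MAF core in this window and for 1 member with none. The choice was made among members whose RefSeq and Gencode starts lie close together. Bfsp1, whose starts coincide and whose only match lies farther upstream, is not shown. The sequences are from RefSeq on build GRCm38.p6 and run in the direction of transcription. Capitals mark 3 short motifs, searched on both strands, and no printed match overlaps another. The first is the MAF recognition core TGCTGA. The second is TATAAA, the TATA box at which the basal transcription machinery assembles. The third is AACAAT, the core bound by SOX factors.
Cryba1, chr11:77725294-77725443, minus strand: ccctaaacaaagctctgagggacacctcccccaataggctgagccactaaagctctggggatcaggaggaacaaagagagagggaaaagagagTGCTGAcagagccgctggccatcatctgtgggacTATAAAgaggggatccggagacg
Crybb1, chr5:112255670-112255819, plus strand: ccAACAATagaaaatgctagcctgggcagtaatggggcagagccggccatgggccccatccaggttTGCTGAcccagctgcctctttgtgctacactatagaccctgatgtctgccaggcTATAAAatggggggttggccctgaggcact
Mip, chr10:128225660-128225809, plus strand: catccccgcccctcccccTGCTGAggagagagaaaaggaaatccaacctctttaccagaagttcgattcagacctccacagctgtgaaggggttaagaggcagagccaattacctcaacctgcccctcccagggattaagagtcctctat
Crybb2, chr5:113070118-113070267, minus strand: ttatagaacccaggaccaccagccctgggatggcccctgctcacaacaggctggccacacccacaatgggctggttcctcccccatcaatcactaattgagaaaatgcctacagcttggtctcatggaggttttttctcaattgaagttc

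A promoter window was at hand for 8 of the 9 genes, all but Cryab. In the 250 bases before the start, on both strands, the letters TGCTGA occurred in 6 of the 8 windows, compared with 16.1% of the 32544 windows in the same table. They began 57 bases before the start in Cryba1, 84 in Crybb1, 108 in Cryaa and 132 in Mip on the sense strand, and 187 bases before it in Bfsp1 and 200 in Crygs on the antisense strand. The TATAAA box was in 3 of 8 windows, at 23 bases in Cryba1, 25 in Crygs and 30 in Crybb1, and in 12.3% of all windows. AACAAT was in 2 of 8, Crybb1 and Crygs, and in 9.34% of all windows. The start used is that of RefSeq, which lies 124 bases downstream of the Gencode start in Cryaa, 167 in Crygs and 31244 in Bfsp2. The Cryaa match and the TATAAA and AACAAT matches of Crygs thus lie within the Gencode gene bodies. The motif matches describe letters only. Binding was not measured.

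The 9 genes lie on 7 chromosomes, with Crybb1 and Crybb2 near each other on chromosome 5. On build GRCm38 the Gencode gene bodies are Cryaa chr17:31677807-31681733, Cryab chr9:50751325-50756636, Cryba1 chr11:77718615-77725283, Crybb1 chr5:112255815-112269585, Crybb2 chr5:113058258-113070117, Crygs chr16:22805203-22811577, Mip chr10:128225838-128231812, Bfsp1 chr2:143826528-143863173 and Bfsp2 chr9:103424924-103480420. Cryab overlaps its neighbor Hspb2, another small heat shock protein gene on the opposite strand, over 1030 bases, and Cryba1 lies within the body of Nufip2. Cryaa, Mip, Crybb2, Bfsp1 and Bfsp2 also overlap non-coding or pseudogene models on the opposite strand. Whether reads were counted by strand is not given in the sources used here, so counts in shared stretches are uncertain.

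In most retinas 8 of the 9 genes gave few reads, and only Cryab was at a clear level. In a small number of retinas all 9 were far higher. The libraries were sorted by genes that are not members, the summed CPM (read counts scaled to a common library size by trimmed means) of 19 other lens genes, 10 crystallins and 9 fiber membrane proteins and enzymes. The median sum was 1.26 CPM, and 8 libraries exceeded 5 times this median. Control ZT1 replicate 6 was at 299 times the median (376 CPM), control ZT21 replicate 2 at 229 times (287 CPM) and control ZT17 replicate 5 at 228 times (287 CPM). Those 3 control libraries are called the 3 highest. The next 5 were 2 at diabetic ZT9 (13.5 times for replicate 5 and 11.8 times for replicate 4), diabetic ZT1 replicate 3 at 9.06 times, diabetic ZT13 replicate 4 at 7.49 times and control ZT1 replicate 4 at 6.66 times. The other 50 libraries, 26 control and 24 diabetic, lay between 0.397 and 4.02 times the median. The 8 libraries thus held 4 of each genotype, but the 3 with the very high levels were all control.

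**Figure D1:**
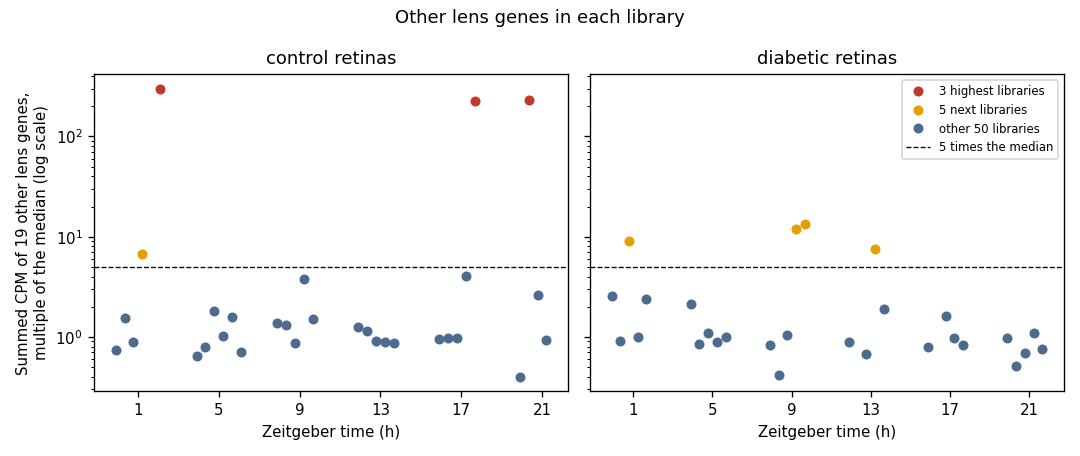
Summed CPM of the 19 lens genes that are not members, as a multiple of the median over the 58 libraries (log axis), against ZT in h in control (left) and diabetic retinas (right). Each point is 1 library and the dashed line is at 5 times the median; the 3 highest libraries, all control, sit at 228 to 299 times the median and the next 5 at 6.66 to 13.5 times.

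Library totals over genes ran from 7773117 to 22147398 reads with a median of 15406440. The 9 genes together made up 0.351% of the reads of control ZT1 replicate 6, 0.268% of control ZT21 replicate 2 and 0.231% of control ZT17 replicate 5. A count of 3 reads, the limit that a count of 0 allows, corresponded to 0.136 CPM in the deepest and 0.379 CPM in the shallowest library. The summed level of 8 rod genes was 43527 to 47465 CPM in the 3 highest libraries and 36432 to 55046 CPM in the other 50, so these libraries carried rod transcripts at the level of the rest. Sums for Müller glia (3677 to 4161 against 3053 to 4550 CPM) and ganglion cells (597 to 657 against 514 to 806 CPM) also lay within the range of the other 50.

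Cryaa, the alpha crystallin nearly restricted to lens, is given as the first example of this pattern. Control ZT1 libraries held 0, 25, 5, 78 and 29841 reads. Control ZT5 libraries ranged from 0 to 83 reads with a median of 2.5. Control ZT9 libraries held 35, 3, 0, 14 and 18 reads. At ZT1 the highest value was far apart from the others of its group, and at ZT5 the library with 83 reads stood above its group at a much lower level. Control ZT13 gave 1, 7, 2, 5 and 1 reads. Control ZT17 gave 7, 2, 6, 178 and 16480 reads. Control ZT21 gave 0, 14183, 59 and 2 reads. The control groups at ZT1, ZT17 and ZT21 therefore each held 1 of the 3 highest libraries, and no library of the other control groups had more than 83 reads.

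In the diabetic groups Cryaa gave 28, 2, 382, 4 and 100 reads at ZT1. At ZT5 it gave 8, 5, 0, 0 and 9 reads. At ZT9 the counts were 1, 0, 0, 225 and 325 reads. The pair of high ZT9 libraries and the 382 reads at ZT1 belonged to the 8 libraries defined above. At ZT13 there were 2, 1, 528 and 22 reads. At ZT17 there were 0, 1, 4 and 5 reads. At ZT21 there were 5, 0, 1, 0 and 0 reads. No diabetic library came within an order of magnitude of the 3 highest control libraries. In CPM, Cryaa was 1563, 1236 and 1051 in the 3 highest, 30.4 in diabetic ZT1 replicate 3 and 30.1 in diabetic ZT13 replicate 4, and at most 11.4 in the other 50, where its median was 0.204 CPM and 13 libraries had no read.

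The beta and gamma crystallins followed Cryaa. Crybb2, the most abundant of them in the 3 highest libraries, had 15232, 6198 and 7507 reads in control ZT1 replicate 6, control ZT21 replicate 2 and control ZT17 replicate 5, in that order (798, 540 and 479 CPM). In the other 50 it had 0 to 95 reads, and 10 of these libraries had none. Cryba1 had 6279, 3286 and 3564 reads in the same 3 libraries (329, 286 and 227 CPM) and 0 to 24 reads in the other 50, of which 17 were at 0. For both genes the high and the low libraries did not overlap. Crygs, a gamma-type crystallin of the outer lens, had 3614, 1735 and 2489 reads against 0 to 21 in the other 50, with 14 at 0. Crybb1 had 1060, 520 and 546 reads against 0 to 14 in the other 50. Crybb1 differed from the other beta and gamma members in the low libraries, where it had a median of 6 reads and was at 0 in only 1 of 50. Crybb3, a beta crystallin that is not a member, was alike there, with a median of 8.5 reads (2 to 19).

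Mip, the aquaporin of the fiber membrane, had the lowest background of the 9 genes. It was at 0 in 35 of the other 50 libraries and never above 8 reads there, compared with 1658, 799 and 935 reads in the 3 highest (86.8, 69.6 and 59.7 CPM). The beaded filament genes were the reverse. Bfsp1 had 345, 106 and 209 reads in the 3 highest against a median of 6 (0 to 14) in the other 50. Bfsp2 had 218, 89 and 140 reads against a median of 8.5 (1 to 22), so for these genes the low libraries held a small but steady number of reads.

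Cryab was the only member with a substantial level in every retina. In the other 50 libraries it had 147 to 628 reads, with a median of 288.5 reads or 19.6 CPM. The 3 highest libraries had 425, 341 and 366 CPM, and all lay above the remaining 55. Of the next 5 libraries, diabetic ZT9 replicate 4 (34.8 CPM) alone exceeded the highest of the 50, 33.7 CPM.

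**Figure D2:**
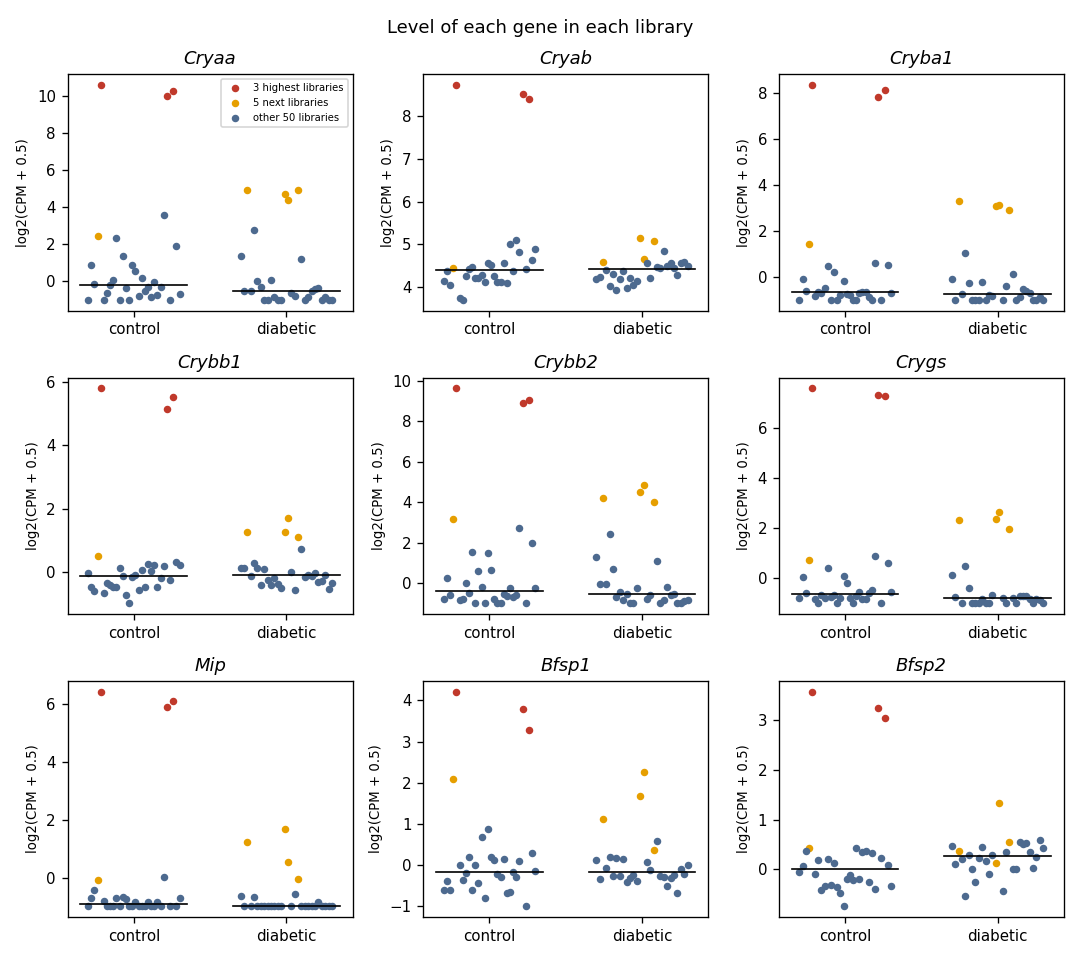
Level of each of the 9 genes on the log2(CPM + 0.5) scale in control and diabetic libraries, 1 panel a gene with its own axis; each point is 1 library, colored by whether it is among the 3 highest, the next 5 or the other 50, and the black line is the median of the genotype. In every panel the 3 highest libraries lie above all others, while the other 50 have a median of 19.6 CPM for Cryab and 0 for Mip.

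Pooling reads, the ratio of the 3 highest to the other 50 libraries differed widely among the members. It was 1774 for Mip (exact 95% interval 1247 to 2615), 1477 for Cryaa (1368 to 1597) and 1330 for Cryba1 (1138 to 1564). Crybb2 followed at 942 (862 to 1031) and Crygs at 876 (744 to 1040). These 5 are the genes with little or no background. The ratio was 117 for Crybb1 (104 to 133), 34.7 for Bfsp1 (30.3 to 39.9), 18.7 for Cryab (18.3 to 19.1) and 16.5 for Bfsp2 (14.4 to 18.9). Neighbors in this order whose intervals overlap, such as Mip, Cryaa and Cryba1 or Crybb2 and Crygs, cannot be ranked. The intervals cover counting error only, and not the wide spread among the 50 libraries. With the median library in place of pooled reads, Crybb2 came ahead of Cryba1, so no order among the 5 low-background genes was established.

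Per kilobase of exon, which allows levels of different genes to be set side by side, the order changed with the kind of library. In the other 50 the median was 13.3 CPM per kb for Cryab, 0.385 for Crybb1, 0.333 for Bfsp2 and 0.15 for Bfsp1. Cryaa (0.0980), Crygs (0.0933), Crybb2 (0.0823) and Cryba1 (0.0590) were at or under the level of a few reads, and the Mip median was 0. Only Cryab was separated from its neighbor beyond the spread, since its lowest library (8.40 CPM per kb) lay above the highest value of every other member (5.49, Cryaa). In the 3 highest libraries the median was 595 CPM per kb for Cryaa, 268 for Crybb2, 248 for Cryab, 181 for Crygs, 180 for Cryba1, 46 for Crybb1, 32.5 for Mip, 5.58 for Bfsp1 and 5.26 for Bfsp2. Here Cryaa was above Crybb2 in all 3 libraries (506 to 753 against 238 to 396), and Crybb1 was above Mip in all 3. The order of Crybb2 and Cryab, of Crygs and Cryba1 and of the filament pair changed from library to library.

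The proportions among the 5 genes with low background were compared next, as shares of their summed reads. Cryaa took 52.7% in control ZT1 replicate 6 (exact 95% interval 52.3 to 53.1), 54.1% in control ZT21 replicate 2 (53.5 to 54.7) and 53.2% in control ZT17 replicate 5 (52.6 to 53.8). The share was thus nearly the same in these 3 retinas. Diabetic ZT13 replicate 4, with far fewer reads, had 53.1% (49.9 to 56.2). The remaining 4 of the 8 libraries had lower Cryaa shares, with 47.5% in diabetic ZT1 replicate 3 (44 to 51), 41.3% in diabetic ZT9 replicate 4 (37.1 to 45.5), 32.2% in diabetic ZT9 replicate 5 (29.4 to 35.2) and 29.1% in control ZT1 replicate 4 (23.7 to 34.9). Those 4 intervals lie below the values of the 3 highest libraries.

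Crybb2 made up much of the difference. Its share was 23.7% to 26.9% in the 3 highest libraries, 34.7% in diabetic ZT9 replicate 4, 44.1% in diabetic ZT9 replicate 5 (41.1 to 47.3) and 48.5% in control ZT1 replicate 4 (42.4 to 54.7). Bfsp1 differed in the same libraries. Over the median of the other 50, it had 0.719 to 1.23 CPM for every 100 CPM of Cryaa in the 3 highest libraries, 19.7 in diabetic ZT9 replicate 5 and 71.4 in control ZT1 replicate 4. The shares thus differed among the 8 libraries by more than counting error. Few replicate retinas with like lens levels were at hand to set beside it. Diabetic ZT9 replicates 4 and 5, at 11.8 and 13.5 times the median lens sum, had Cryaa shares of 41.3% and 32.2%. Replicates of that group thus differed as well, while the 3 highest, each from another group, stayed at 52.7% to 54.1%. Other gamma crystallin genes differed among the 3 highest as well. Crygb had 149 reads in control ZT17 replicate 5 against 16 and 11 in the other two, and Crygc 79 against 25 and 18. These genes are close copies of each other, so the split of reads among them is uncertain.

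**Figure D3:**
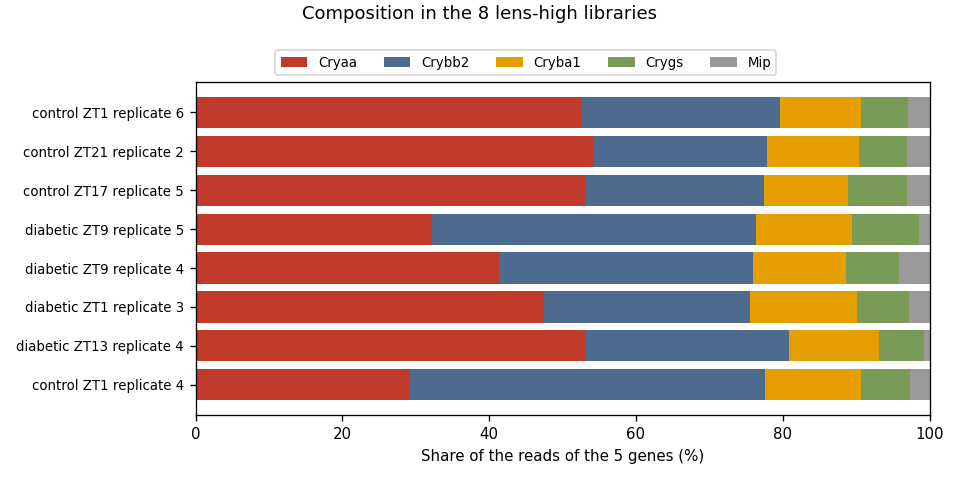
Share of each of Cryaa, Crybb2, Cryba1, Crygs and Mip in their summed reads (percent, stacked bars) for the 8 libraries high in lens genes, 1 bar a library. The 3 highest libraries have Cryaa at 52.7% to 54.1%, and control ZT1 replicate 4 has it at 29.1%.

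The 19 other lens genes chose the high libraries by their sum, so their summed level there is a description only. They differed in which of them were detected. Among the 10 other crystallins, 7 were above all of the other 50 libraries in each of the 3 highest, and their sum was 225 to 317 CPM compared with 0.173 to 3.91 CPM. Cryge and Crygf had no read in any of the 58 libraries, and Cryga none in the 3 highest. Of 9 fiber membrane proteins and enzymes, 4 stood above all 50 and the sum was 37.6 to 61.6 against 0 to 1.34 CPM. Gja3, a connexin of lens fibers, was among them. Lim2, which encodes an abundant fiber membrane protein, had no read in any library, and Dnase2b and Birc7 had none in the 3 highest.

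The 12 lens transcription factor and epithelium genes include several that retina also uses, and their sum was 1252 to 1321 CPM against 1124 to 1347 CPM. Of these, 4 were above all 50 libraries in each of the 3 highest. They were Foxe3, Pitx3, Sox1 and Maf, and Maf was at 28.3 to 30.4 CPM against 17.2 to 27.3 CPM. Markers of the other eye tissues were set beside these values. The 9 pigment epithelium genes summed to 142 to 211 CPM in the 3 highest and 28.3 to 380 CPM in the other 50, with 0 of 9 above all 50. Ciliary body and iris genes summed to 18.9 to 36.6 against 14.5 to 36.5 CPM (1 of 7 above all 50), cornea genes to 3.40 to 14 against 0 to 35.3 CPM, and hemoglobin and erythroid genes to 0.261 to 5.08 against 0 to 13.2 CPM (0 above all 50 in either list). Whether lens tissue was carried along in these dissections was not tested, and in whole-retina RNA more cells of a kind cannot be told apart from more RNA per cell.

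The number of members above every one of the other 50 libraries followed this order. It was 9 of 9 in each of the 3 highest, 8 in diabetic ZT9 replicate 5 (not Cryab) and in diabetic ZT9 replicate 4 (not Bfsp2), 7 in diabetic ZT1 replicate 3, 5 in diabetic ZT13 replicate 4 and 3 in control ZT1 replicate 4.

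Genes whose level over libraries was most like that of the members were taken by the Pearson correlation with the mean of the 9 on the log2(CPM + 0.5) scale, over 58 libraries and 28093 genes with a read in at least 10 libraries. Among the top 10 were Cryba2 (r = 0.994), Cryba4 (0.983), Crybb3 (0.963), Lctl (0.933), Wnt7b (0.929), Gja3 (0.921), Crygc (0.908), Grifin (0.907) and Gm5607 (0.906). Of the 10, 8 were on the lens lists. Wnt7b, a secreted Wnt ligand, had 69 to 160 reads in the 3 highest libraries and a median of 0 in the other 50, and the gene model Gm5607 had 28 to 68 reads against a median of 0. These correlations rest on the same few high libraries. In the other 50 the list began with Cryba2 (r = 0.904), Gm42196 (0.687), Crygb (0.628) and Crygc (0.610), and Stat2 was among its last members at 0.531.

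Within the other 50 libraries the low counts of most low-background genes still moved together. Over the 10 pairs among Cryaa, Cryba1, Crybb2, Crygs and Mip, r on the same scale was 0.534 to 0.926 with a median of 0.836, and Spearman's rho was 0.419 to 0.769. Without the 2 libraries farthest from the median the range of r was 0.269 to 0.882 (n = 48, median 0.753). Pairs with Cryab had r of 0.0610 to 0.370, and pairs among Crybb1, Bfsp1 and Bfsp2 had r of -0.448 to 0.222. Without those 2 libraries the 4 pairs with Mip were at 0.269 to 0.470, which overlapped the pairs with Cryab over all 50, while the 6 pairs among Cryaa, Cryba1, Crybb2 and Crygs stayed at 0.720 to 0.882. Thus 4 members varied together even at a few reads per library, and for Mip, at 0 in 35 of the 50, this was not clear. The points share sequencing depth and many zeros, and the values are descriptive.

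The comparison of diabetic with control retinas over all time points depended on the high libraries. The fit used edgeR's quasi-likelihood test on raw counts with Benjamini-Hochberg adjustment over the 19120 genes whose median normalized count exceeded 4. Only 5 of the 9 genes passed this filter, Cryaa, Cryab, Crybb1, Bfsp1 and Bfsp2. With all 58 libraries 3 of these 5 were called lower in diabetic retinas at an adjusted p under 0.05, beside 1.40% of all genes tested called in that direction and 2.97% called in either. Cryaa averaged 129 ± 397 CPM (SD, n = 30) in control and 4.31 ± 9.57 CPM (SD, n = 28) in diabetic libraries, with a log2 difference of -5.01 ± 1.02 (SE) and an adjusted p of 0.00225. Crybb1 averaged 4.87 ± 13.9 against 0.654 ± 0.634 CPM, a log2 difference of -2.97 ± 0.67 (adjusted p = 0.00675). Cryab averaged 56.3 ± 110 against 21.2 ± 4.82 CPM, a log2 difference of -1.42 ± 0.36 (adjusted p = 0.0163). For all 3 genes the SD of the control libraries exceeded their mean, and the values of the 2 genotypes overlapped. Cryaa passed the filter narrowly, with a median normalized count of 4.13 over all libraries and 2.85 over the diabetic ones. It was therefore tested in only 34 of the 58 fits that left out 1 library, and its call is no support for a difference. Bfsp1 (-1.51, adjusted p = 0.0935) and Bfsp2 (-0.94, adjusted p = 0.207) did not pass.

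Removing the 3 highest libraries ended all 3 calls. In that fit, with 2.23% of genes called, 0 of the 4 members tested passed by edgeR (2 at an unadjusted p under 0.05, as were 2754 of 19130 genes), and the log2 difference was 0.03 for Cryab (adjusted p = 0.935), 0.66 for Crybb1 (0.226), 0.28 for Bfsp1 (0.808) and 0.56 for Bfsp2 (0.0510). Without all 8 libraries (1.75% of genes called) 0 of 4 passed either (1 at an unadjusted p under 0.05, as were 2578 of 19148 genes). Cryab was then at 20.6 ± 5.25 CPM (SD, n = 26) in control and 19.8 ± 3.24 CPM (SD, n = 24) in diabetic retinas, a log2 difference of -0.06 ± 0.08 (SE) with an adjusted p of 0.856 from edgeR. Bfsp2 had a median of 6.5 reads in control and 11 in diabetic libraries, with a log2 difference of 0.48 and an adjusted p of 0.114. Leaving out control ZT1 replicate 6 alone was enough to leave 1 of the calls, Crybb1, with Cryab at -1.04 (adjusted p = 0.0549) and Cryaa under the filter. DESeq2, which replaced single extreme counts of 4 members, called 0 of 5 (3.57% of all genes), and 0 were called with the replicate number as a block (2.61%) or the lens sum as a covariate (2.72%). With ZT as a factor 1 was called, Crybb1 (4.69%).

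The 4 members under the filter were fitted once with no filter, where 0.978% of 37233 genes were called. There 7 of the 9 genes were called lower in diabetic retinas, among them Mip (-5.30, adjusted p = 0.00211), Crygs (-4.64, 0.00359), Cryba1 (-4.56, 0.00506) and Crybb2 (-4.28, 0.00891). Without the 3 highest libraries 0 of 9 were called in the unfiltered edgeR fit (0.680% of all genes), 5 had an unadjusted p under 0.05, as did 3879 of 37053 genes, and Cryaa stood at 1.62 (adjusted p = 0.375), above 0 in place of below it. Without the 8 libraries, where 0 of 9 were called (0.460% of genes) and 3 had an unadjusted p under 0.05, as did 3726 of 36767 genes, Cryaa stood at -1.13 (0.556), Mip at -1.39 (0.302) and Crygs at -1.24 (0.348).

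**Figure D4:**
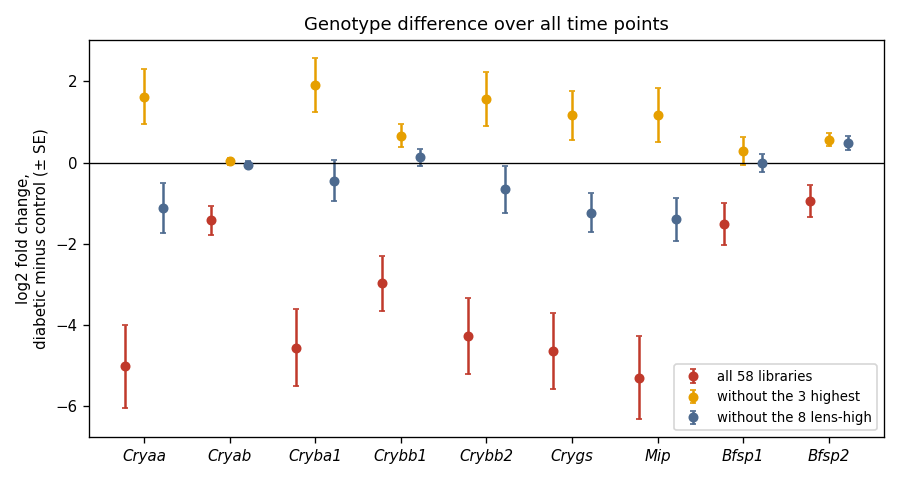
Log2 difference of diabetic minus control retinas (points, with SE as bars) for the 9 genes from the fits with no filter, with all 58 libraries (red), without the 3 highest (orange) and without the 8 libraries high in lens genes (blue). All 9 red points are below 0, from -0.94 for Bfsp2 to -5.30 for Mip, and all 9 orange points are above it, with Cryab at 0.03.

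At the single time points 0 of the 5 tested members differed between genotypes by edgeR's adjusted p, and few genes did at all (0.0157% of those tested for ZT1, 0.0209% for ZT5, 0.00523% for ZT9, 0.00% for both ZT13 and ZT21, and 0.167% for ZT17). At an unadjusted p under 0.05 the counts of members were 5 at ZT1, 4 at ZT17 and 4 at ZT21, the times at which a group held 1 of the 3 highest libraries, and 0 at ZT5, ZT9 and ZT13. Of all 19120 genes, 1039 reached that level at ZT1, 1676 at ZT17 and 883 at ZT21. DESeq2 called 0 at each time point, with 1 unadjusted at ZT1, 1 at ZT17 and 1 at ZT21. Among all genes it called 88 for ZT17, 32 for ZT5, 6 for ZT1, 4 for ZT9, 2 for ZT21 and 1 for ZT13, and 999, 1635 and 844 were at an unadjusted p under 0.05 at ZT1, ZT17 and ZT21. The genotype by time interaction was called for 0.00% of genes by edgeR and for 0 of 5 members, with 4 of 5 members and 498 of the 19120 genes at an unadjusted p under 0.05.

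Over the day, the same dependence was seen. Differences among the 6 time points within control were called by edgeR for 5 of 5 members (8.97% of all genes), with adjusted p of 0.000642 for Cryaa, 0.00158 for Crybb1, 0.00278 for Cryab, 0.0161 for Bfsp2 and 0.0317 for Bfsp1. Here too Cryaa was tested only because it narrowly passed the filter, and these calls describe groups that hold the 3 highest libraries. Within diabetic retinas 0 of 5 were called (10.1% of all genes), with 0 also at an unadjusted p under 0.05 by edgeR. Without the 8 libraries 1 of the 4 members tested was called in control, Cryab at an adjusted p of 0.00120 (7.09% of genes called), and 0 of 4 in diabetic retinas, where Cryab had 0.0814 (8.42%). Without the 3 highest alone Cryab was again the 1 member called in control (adjusted p = 0.0207, 7.48% of genes), with 0 in diabetic retinas (9.73%). With the lens sum as a covariate 0 were called in control (6.96%) and Cryaa in diabetic retinas (9.53%). In unfiltered fits 8 of 9 were called in control and 0 in diabetic retinas with all libraries (3.25% and 3.67% of genes), 1 and 0 without the 8 (2.62% and 3.06%), and 0 and 5 without the 3 highest (2.67% and 3.64%).

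Cryab was thus the member with a time call in control without the 8 or the 3 highest libraries. That call was itself lost with the lens sum as a covariate (adjusted p = 0.124) and in the unfiltered fit without the 3 highest (0.0551). In control retinas it was at 17.0, 20.2, 16, 21.1 and 425 CPM at ZT1, and at 12.4 to 21.6 CPM at ZT5 with a median of 18.2. It was at 18, 18.9, 16.7, 23.2 and 22.2 CPM at ZT9, and at 18.7, 16.8, 16.9, 23.2 and 16.7 CPM at ZT13. The daytime and dusk groups overlapped throughout, apart from the 1 high library. At ZT17 the values were 31.5, 20.1, 33.7, 27.5 and 366 CPM, and at ZT21 21.1, 341, 24.2 and 29.3 CPM. The night values were thus the upper part of the range even without the high library of each group, with 1 of the ZT17 and 1 of the ZT21 libraries inside the daytime range.

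In diabetic retinas Cryab was at 17.7, 18.3, 23.7, 20.4 and 15.8 CPM at ZT1, and at 19.1, 14.7, 17.6, 20.2 and 15.2 CPM at ZT5. It was at 17.9, 16, 17.0, 34.8 and 24.6 CPM at ZT9, and at 23.2, 18, 33 and 21.7 CPM at ZT13. The 34.8, 24.6, 33 and 23.7 CPM values belonged to the libraries high in lens genes. At ZT17 it was at 21.3, 28, 22 and 23.2 CPM, and at ZT21 at 21.1, 18.8, 23.3, 23.7 and 21.9 CPM. All 4 values at ZT17 lay above all 5 at ZT5.

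Without the 8 libraries the mean Cryab level in control was 17.4 ± 3.89 CPM at ZT5 (SD, n = 6) and 28.2 ± 5.98 CPM at ZT17 (SD, n = 4), a ratio of 1.62, and was 24.9 ± 4.15 CPM at ZT21 (SD, n = 3). In diabetic retinas it was 17.4 ± 2.42 CPM at ZT5 (SD, n = 5) and 23.7 ± 3.02 CPM at ZT17 (SD, n = 4), a ratio of 1.36. With the high libraries kept in, the control ratio of ZT17 to ZT5 became 5.52, while the diabetic one stayed at 1.36, since no diabetic library at either time was among the 8. When each of the 50 libraries was left out in turn, Cryab was called over time in control in 50 of 50 fits (edgeR adjusted p 0.000104 to 0.0153) and in diabetic retinas in 1 (0.0456 to 0.226, the call coming without control ZT17 replicate 2). The difference between genotypes in this course had an interaction adjusted p of 1.00 by edgeR, so no difference was shown.

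**Figure D5:**
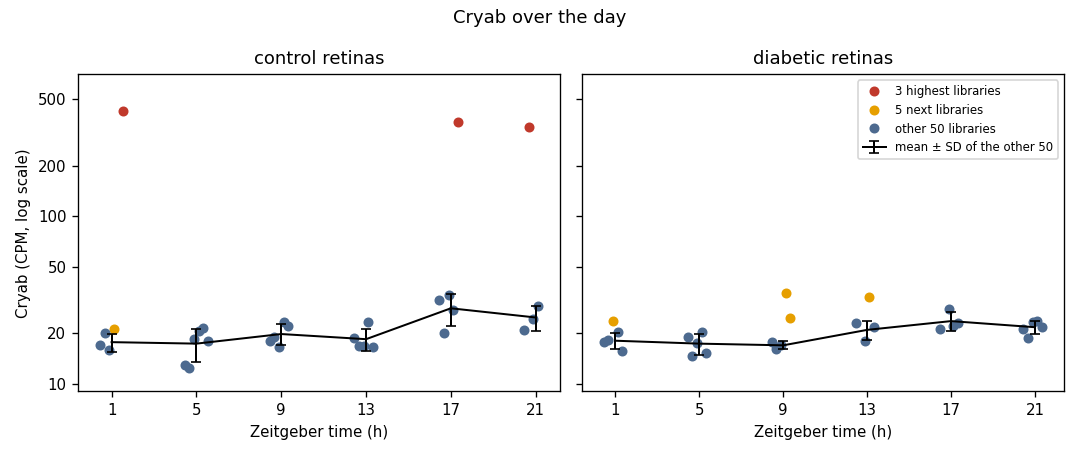
Cryab level in CPM (log axis) against ZT in h in control (left) and diabetic retinas (right); each point is 1 library, and the black line joins the group means (error bars, SD) of the other 50 libraries. Means are highest at ZT17 in both genotypes, at 28.2 CPM in control and 23.7 CPM in diabetic retinas.

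A rhythm of 24 h was tested by empirical JTK_CYCLE, a rank test of the best matching waveform, and called at an unadjusted p under 0.05 with its highest library more than 25% above its lowest in that genotype. With all libraries 2 of 5 members were called in control, Cryab (p = 0.0488 from 200000 shuffles in a permutation test) and Crybb1 (p = 0.0439, permutation), where 21.8% of all genes were called. In diabetic retinas 1 of 5 was called, Cryab (p = 0.0277, permutation), where 23.9% of genes were. None of them passed the adjusted p (0.218, 0.204 and 0.145). In control 8.23% of genes passed it and in diabetic retinas 9.80%. A 24 h cosine fitted to the counts was also tested by edgeR's quasi-likelihood F test, which weighs values and not ranks. It gave 5 of 5 members in control and 0 of 5 in diabetic retinas at an unadjusted p under 0.05 (26.3% and 26.8% of genes). Peak times and amplitudes given below come from a separate least-squares cosine, which was not used for p-values.

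Without the 8 libraries Cryab had p = 0.0215 in control (permutation, adjusted p = 0.148) with an acrophase, the time of the fitted peak, at ZT18.3 and an amplitude of 21.2% of its mean, beside 20.3% of genes called. In diabetic retinas it had p = 0.000320 (permutation, adjusted p = 0.0101), an acrophase at ZT17.5 and an amplitude of 17.0%, beside 23.9% of genes called. With all libraries the acrophases had been ZT21.0 and ZT15.2 and the amplitudes 94.7% and 15.4%. Leaving out each library in turn kept the diabetic call in 24 of 24 cases (p 0.000150 to 0.00125, permutation) and the control call in 22 of 26 (p 0.0100 to 0.0595, permutation). It was lost without control ZT17 replicate 1, 3 or 4 or control ZT21 replicate 3. Whether the rhythm differed between genotypes was not tested.

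The small heat shock proteins, the wider family of Cryaa and Cryab, were set beside them. Of 8 genes 5 were tested, and 0 were called for genotype (2.97% of all genes) or for time within control (8.97%) or diabetic retinas (10.1%) by edgeR. By the rhythm rule 2 of 5 were called in control, Hspb1 and Hspb8 (p = 0.0209 each, permutation), and 3 of 5 in diabetic retinas, Hspb3 (p = 0.000555, permutation, adjusted p = 0.0123), Hspb1 (0.0190) and Hspb8 (0.0216), beside 21.8% and 23.9% of all genes. Hspb3 gave few reads, 0 to 12 with a median of 5 in the other 50 libraries, so its call rests on low counts. The 8 genes summed to 68.5 to 88.7 CPM in the 3 highest libraries and 51.9 to 115 CPM in the other 50, with 0 of 8 above all 50. The sum of the family thus stayed within the range of the other 50 where Cryaa and Cryab were high. Of the 10 other crystallins only Crybb3 passed the filter, and it was called lower in diabetic retinas (-2.60, adjusted p = 0.00853) and over time in control (0.00253) by edgeR with all libraries. It is among the 19 genes whose sum chose the high libraries, so these calls carry that choice and support nothing. Of 9 lens transcription factor and epithelium genes tested 0 were called for genotype, and 2 were called over time in control (Mab21l1 and Maf) and 2 in diabetic retinas (Mab21l1 and Caprin2).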

How the data were processed

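RNA from 58 single retinas was sequenced. The authors depleted ribosomal RNA (KAPA RNA HyperPrep with RiboErase), aligned paired reads with STAR 2.7.4a to GRCm38.p5 with Gencode M15 and counted them per gene with HTSeq 0.11.1. The deposited values are raw counts per gene, with totals of 7773117 to 22147398 reads per library, and depth limits genes near 0, so intervals and the limit of 3 reads cover counting error only. Replicate pairs differed beyond sampling noise (113 pairs, chi-square per degree of freedom at least 1.86), so each library counted once.

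Groups were taken from the sample labels. The members, gene lists and tests were chosen with earlier results of these data known. From the counts, edgeR 4.0.16 (R 4.3.3, TMM scaling, robust quasi-likelihood F test) compared genotypes over all libraries, and genotypes and time points in 1 fit of 12 groups, with Benjamini-Hochberg adjustment over the 19120 genes with a median DESeq2-normalized count above 4 and calls at an adjusted p under 0.05. Empirical JTK_CYCLE was rewritten in Python 3.11.15 (24 h period, 6 phases, 5 asymmetries, 200000 shuffles, highest library more than 25% above the lowest) and tested, like the fits, on simulated data. CPM used TMM-scaled library sizes. A library was called high in lens genes when the summed CPM of 19 lens genes other than the members exceeded 5 times the median over libraries. Leaving out the 3 highest libraries alone, and combining this with no filter, were chosen after seeing the data. The genes named are the 9 members, at most 6 genes a list by mean CPM, the 10 genes most correlated with the members, and overlapping neighbors, and 1 gene among them is not reported here. Within the lists some other genes, such as Cryge, Lim2, Dnase2b and Birc7, and the gamma crystallins, were named after their values were seen. Alternatives were DESeq2 1.42.0, its size factors, no filter, the replicate number as a block, ZT as a factor, the lens sum as a covariate, an adjusted p or a cosine for the rhythm, other multiples of the median, and leaving out each library. Positions came from Gencode and promoters from RefSeq.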

Additional observations from a re-analysis of the deposited data

Results flagged for a closer look

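In each group of 4 to 6 libraries the gap between the highest or lowest value of a member and its nearest neighbor was set against the range of the group on the log2(CPM + 0.5) scale, with Dixon's limit. Of 106 such groups, 32 values stood apart, where chance alone gives about 1 in 20 groups (5.3). Of these, 18 were in the 3 highest libraries, 21 in the 8 libraries high in lens genes and 11 elsewhere. Since the genes were chosen with these levels known, the counts support nothing further.

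In control ZT1 replicate 6 the values that stood above the group were 425 CPM for Cryab, 329 CPM for Cryba1, 55.5 CPM for Crybb1, 189 CPM for Crygs, 86.8 CPM for Mip and 11.4 CPM for Bfsp2. In control ZT17 replicate 5 they were 366 CPM for Cryab, 227 CPM for Cryba1, 34.8 CPM for Crybb1, 159 CPM for Crygs, 59.7 CPM for Mip, 13.3 CPM for Bfsp1 and 8.93 CPM for Bfsp2. In control ZT21 replicate 2 they were 341 CPM for Cryab, 286 CPM for Cryba1, 45.3 CPM for Crybb1, 69.6 CPM for Mip and 7.76 CPM for Bfsp2. Cryaa and Crybb2 in these libraries did not pass on the log scale, since the other values of their groups were themselves widely spread.

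Among the next 5 libraries, Crygs stood apart in diabetic ZT13 replicate 4 (3.42 CPM), Mip in diabetic ZT1 replicate 3 (1.83 CPM) and Bfsp2 in diabetic ZT9 replicate 5 (2.01 CPM). Elsewhere, control ZT5 replicate 5 was above its group for Cryaa (4.54 CPM), Cryba1 (0.876 CPM) and Crygs (0.821 CPM). Diabetic ZT5 replicate 1 was above its group for Crybb2 (1.12 CPM) and Crygs (0.264 CPM), and diabetic ZT21 replicate 1 for Cryaa (0.295 CPM) and Mip (0.0590 CPM). Mip in control ZT13 replicate 4 (0.0615 CPM) rested on 1 read. In 3 cases the value was the lowest of its group, with Crygs at 0 CPM and Bfsp2 at 0.499 CPM in diabetic ZT17 replicate 1 and Bfsp1 at 0.204 CPM in diabetic ZT17 replicate 4.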

How the results depend on the processing

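The members' genotype calls over all time points, 3 of 5 with all libraries, were 7 with no filter on low counts, 1 with ZT as a factor, and 0 with the replicate block, with the lens sum as a covariate, without the 3 highest or without the 8 libraries (each with and without the filter), and with DESeq2, which replaced counts of 4 members in single libraries. The log2 difference turned positive with the covariate for Cryaa (0.56), Crybb1 (0.19), Bfsp1 (0.14) and Bfsp2 (0.34). It did so with DESeq2 for Cryaa (0.077), Cryab (0.035) and Crybb1 (0.72). Without the 8 libraries it did so for Crybb1 (0.13) and Bfsp2 (0.48), and without the 3 highest for Cryab (0.030, unfiltered 0.029), Crybb1 (0.66), Bfsp1 (0.28), Bfsp2 (0.56) and, unfiltered, Cryaa (1.62), Cryba1 (1.91), Crybb2 (1.58), Crygs (1.17) and Mip (1.17). Time calls in control, 5 with all libraries, were 8 unfiltered, 0 with the covariate, 1 without the 8 libraries (filtered or not), and 1 without the 3 highest (0 unfiltered). In diabetic retinas they rose from 0 to 1 with the covariate (Cryaa, adjusted p = 0.0120) and to 5 without the 3 highest and unfiltered (Cryaa, Cryba1, Crybb2, Crygs and Mip). Rhythm calls, 2 in control and 1 in diabetic retinas, were 0 and 0 at the adjusted p and 5 and 0 with a cosine, and in control 1 without the 8 or the 3 highest libraries.

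With each library left out, genotype calls ranged from 1 to 3 (1 without control ZT1 replicate 6), control time calls from 3 to 5 (3 without control ZT1 replicate 6 or control ZT5 replicate 5), control rhythm calls from 0 to 3 and diabetic ones from 0 to 1. The rhythm calls with all libraries thus hang on single libraries, with 17 of 30 control fits moved by more than 1.5 times. At 10 times the median 5 libraries were high in lens genes, compared with 8. The median correlation over the 36 pairs of members, 0.911 over all libraries, was 0.689 without the 3 highest, 0.266 without the 8 and 0.484 as ranks.

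The replicate block moved the genotype count from 3 to 0, with Cryaa at an adjusted p of 0.278 and Cryab at 0.222. No label says that a number marks a shared litter or day, and the main fits did not pair the retinas by number. Deviations from group means were more alike between same-number retinas of the same ZT point. Of 26 same-number pairs 18 correlated above 0.1 (median 0.168, -0.28 to 0.665), against 25 of 114 pairs of different number (median -0.04). On average over the other groups, 26 of 58 libraries correlated best with libraries of their own number. The main fits leave this shared structure out, and what it reflects was not tested. Counts near 0 limit Mip, Crygs, Cryba1, Crybb2 and Cryaa outside the high libraries. The causes of these changes were not tested.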
